A study of Rattus norvegicus with 48 samples.

Results

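Cytosolic ribosomal proteins are the protein components of the ribosomes that translate nuclear-encoded mRNA. Their transcripts were followed here in liver biopsies of 48 male Wistar rats, with 1 Affymetrix array per rat. Members were the genes whose array annotation gave a single symbol of the Rpl or Rps type, with Rplp0, Rplp1, Rplp2 and Rpsa, and without ribosomal S6 kinases, pseudogenes and predicted loci. This gave 71 of the 14506 genes measured, 44 of the large subunit and 27 of the small subunit. The members had 258 probe sets in all, and each gene was read from its probe set of highest mean over the 48 arrays. The choice used gene names and mean level, not a difference between groups. Sham rats (8) had the abdomen opened and no ischemia. Rats of the ischemia and reperfusion group (IRI, 10) had 30 min of ischemia of the whole liver and 30 min of reperfusion. The preconditioned rats (IPC, 10) went through a shorter round first, 10 min without hepatic flow and then 10 min with it. The postconditioned rats (IPO, 10) had the 30 min ischemia, then flow for 30 sec and a stop for 30 sec, 3 times over, before lasting reperfusion. Both maneuvers were used in the rats of the IPC+IPO group (10). All rats were anaesthetized with Hypnorm and Midazolam, and each liver was biopsied in the right lobe. No genetic change is labelled in any group. The labels do not say how long after the laparotomy the sham biopsies were taken. They give no age and name no other agent.

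A ribosome needs its proteins in matched numbers, and cells make them from many separate genes. Messenger RNAs of ribosomal proteins begin with a run of pyrimidines at the cap, the terminal oligopyrimidine tract, through which growth signals by way of mTOR set how much of the message is translated. The messages are long-lived and abundant in most tissues, liver included. Array values are levels of RNA and do not show how much of it was being translated. In a biopsy of whole tissue, fewer cells of a type and less RNA per cell cannot be told apart.

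Runs of pyrimidines stood around the annotated gene starts of most members. RefSeq promoter sequences (build GRCr8) were matched by symbol for 60 of the 71 members. In a window of 40 bases, 20 before and 20 from the first base of the gene, 45 of the 60 members (75.0%) held an unbroken run of at least 8 pyrimidines on the coding strand, against 15.5% of the 27457 promoters in the table. The median longest run was 10 bases in members and 5 in all promoters. Short pyrimidine words were searched on both strands, with overlaps allowed. The word CTTTC stood in 46.7% of member windows and 5.04% of all windows. For the word CTTTT the shares were 16.7% and 4.62%. For the word CTTCC they were 36.7% and 8.36%. Any of these words stood in 71.7% of member windows and 16.7% of all windows on the coding strand, and in 8.33% and 17.2% on the other strand. The windows printed here are of members that the comparisons turn on, written 5′ to 3′ along the gene, with the longest pyrimidine run in capitals. The first 4 genes were called higher than sham in at least 1 ischemic group, and the other 6 were lower in IPO than in IRI.
Rplp0 (chr12:46718371-46718410, minus strand): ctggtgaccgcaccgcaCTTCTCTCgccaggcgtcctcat
Rpl13 (chr19:68062494-68062533, plus strand): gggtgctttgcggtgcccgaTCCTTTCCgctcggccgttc
Rpl23 (chr10:83272165-83272204, minus strand): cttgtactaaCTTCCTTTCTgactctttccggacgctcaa
Rpl34 (chr2:221962264-221962303, minus strand): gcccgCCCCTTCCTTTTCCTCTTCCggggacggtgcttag
Rpl13a (chr1:104748894-104748933, minus strand): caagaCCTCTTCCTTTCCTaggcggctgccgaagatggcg
Rpl35a (chr11:81235002-81235041, minus strand): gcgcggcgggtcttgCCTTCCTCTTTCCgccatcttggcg
Rpl36 (chr9:1533760-1533799, plus strand): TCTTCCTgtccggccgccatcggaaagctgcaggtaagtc
Rps10 (chr20:5700725-5700764, minus strand): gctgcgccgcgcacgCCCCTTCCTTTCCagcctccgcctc
Rps18 (chr20:4933725-4933764, plus strand): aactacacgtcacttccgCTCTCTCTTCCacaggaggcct
Rpl11 (chr5:153560783-153560822, minus strand): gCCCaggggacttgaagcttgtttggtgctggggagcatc

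Runs of 8 or more stood in 12 of the 16 matched members called higher than sham in any ischemic group and in 33 of the 44 others, the same share of 75.0%. Of the 9 matched members that fell in IPO against IRI, 5 had such a run, against 40 of the other 51. Rpl11, whose protein joins the 5S RNA particle of the large subunit, had a longest run of 3 in this window, while Rpl34 had 20. Some runs, such as that of Rpl13a, lay wholly before the annotated first base, so a counted run need not be the tract at the cap. The annotated first base may differ from the start used in liver, and these counts describe the letters only.

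The arrays were checked before the comparisons. Hepatocyte markers were bright on every array (Alb between 12.8 and 13.39 on the log2 scale, Ttr between 12.43 and 13.18), while the T cell gene Cd3e lay between 4.04 and 4.9. Array medians lay between 5.78 and 5.92. Arrays also differed in spread, the SD of their log2 values across genes, which lay between 1.5 and 1.97. Its mean was 1.72 for sham, 1.77 for IRI, 1.85 for IPC, 1.91 for IPO and 1.86 for the combination. Sham was split: animals 43 and 48 stood at 1.96 and 1.91, and the other sham arrays between 1.61 and 1.7. Among members, 57 of 71 had a positive slope on spread within groups, against 50.3% of all genes. The steepest were Rpl6, Rps4x and Rplp0 (3.19, 2.46 and 2.32 log2 units per unit of spread). Rpl36 ran the other way (-0.97). The part of spread in the results below was not tested beyond a fit with spread as a covariate.

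Large and small subunit transcripts went up and down together from animal to animal. Each gene was centred on its mean over the 48 arrays and the genes of a subunit were averaged per animal, and the averages of both subunits had the same sign in 46 of 48 animals. In IRI the large subunit mean was 0.12 ± 0.133 (SD, n = 10) and the small subunit mean 0.16 ± 0.164. In sham they were -0.15 ± 0.339 (SD, n = 8) and -0.12 ± 0.391. IPC lay at -0.01 ± 0.234 and -0.02 ± 0.255, IPO at 0.02 ± 0.17 and -0.01 ± 0.188, and IPC+IPO at 0.01 ± 0.16 and -0.03 ± 0.176 (n = 10 each). The IRI group thus had the highest mean and sham the lowest, with ranges that overlapped in every pair of groups. By median IRI was again highest, at 0.17 (large) and 0.22 (small). The lowest medians were those of IPC, at -0.03 and -0.08, below sham at -0.02 and -0.05.

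**Figure D1:**
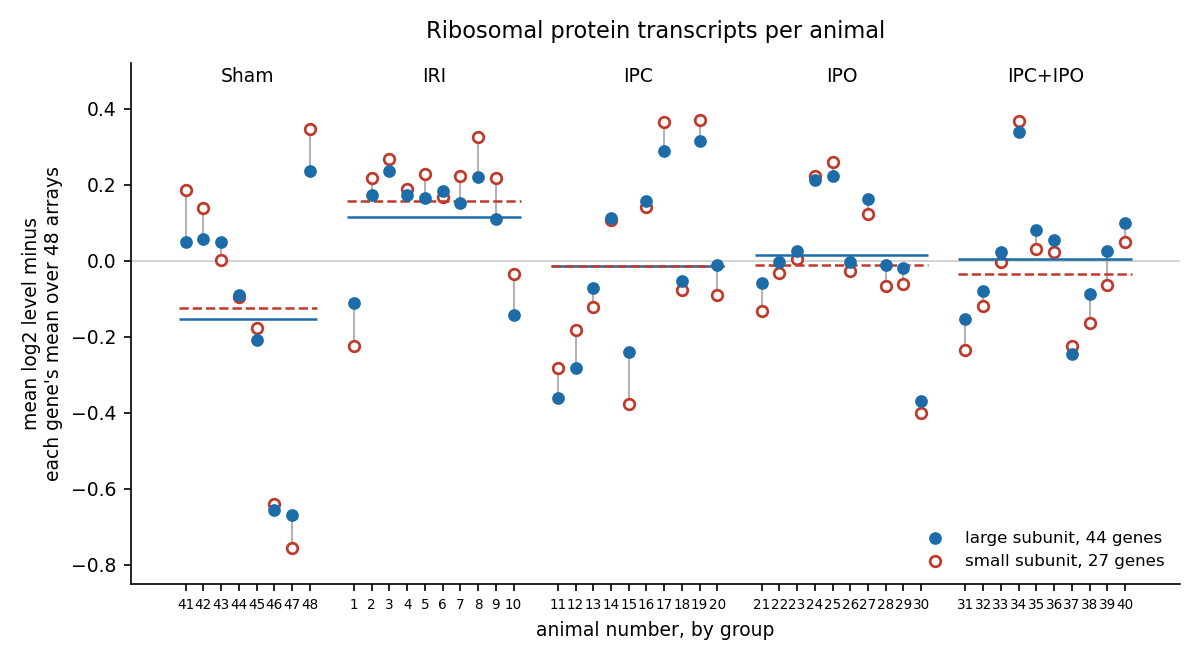
Each animal's mean log2 level of the 44 large subunit genes (filled) and the 27 small subunit genes (open), after each gene was centred on its mean over 48 arrays, by group and animal number. Solid and dashed lines are the group means of the large and small subunit. Sham animals 46 and 47 lie lowest of all 48, and 8 of the 10 IRI animals lie above 0.

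A pair of sham animals stood far below the rest. Their large subunit means were -0.66 (animal 46) and -0.67 (animal 47), and 2 and 0 of the 71 members were above their own median over all arrays. Both animals together held the lowest value of the 48 arrays for 44 members, and they were the lowest 2 sham animals for 65 members. Sham animal 48 was at the other end, with 66 of 71 members above their median. Single animals also stood out in ischemic groups: 5 members were above their median in IRI animal 1 and 2 in IPO animal 30, but 71 in IPC animal 19 and 70 in IPC+IPO animal 34. The labels give no reason to leave any of them out, so each comparison is given with all animals, and where they matter, without them. Calls in such fits and in other settings are counted among the members only, without the share of all genes beside them.

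The difference between the subunits was small beside their shared movement. Large minus small was -0.04 ± 0.0686 (SD) for IRI, -0.03 ± 0.0768 for sham, 0.0 ± 0.0766 for IPC, 0.03 ± 0.0313 for IPO and 0.04 ± 0.0403 for IPC+IPO. The large subunit was above the small in 2 of 10 IRI animals, 3 of 8 sham, 6 of 10 IPC, 8 of 10 IPO and 8 of 10 IPC+IPO animals. This balance moved with array spread: the large subunit was above the small in 22 of the 24 arrays of higher spread and in 5 of the 24 of lower spread. Its part in the group values was not tested, and since the members were chosen with earlier results known, no p value is given for these means.

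Ischemia and reperfusion alone was compared with sham. Of 71 members, 4 rose and 0 fell (limma, Benjamini-Hochberg adjusted p under 0.05 over all genes), which is 5.63% of members beside 0.241% of all 14506 genes (0.172% higher, 0.0689% lower). They were Rplp0, Rpl13 and Rpl23 of the large subunit and Rpsa of the small one. The median difference of the members was 0.25 on the log2 scale (0.25 in the large and 0.25 in the small subunit), beside 0.03 over all genes, and 63 members lay above 0. At an unadjusted p under 0.05, 33 of the 71 members and 11.5% of all genes passed.

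Rplp0, the base of the ribosomal stalk that recruits elongation factors, was at 9.36, 10.15 and 10.95 (lowest, median and highest log2 level) in sham and at 10.78, 10.91 and 11.2 in IRI. In 6 of 8 sham animals it was below every IRI animal, and the highest sham animals reached into the IRI range. The difference was 0.75 ± 0.166 (SE), 1.69-fold (limma, adjusted p = 0.0377). Of its stalk partners, Rplp1 was at 10.05, 11.07 and 11.54 in sham and 11.22, 11.43 and 11.7 in IRI, a difference of 0.47 ± 0.116 that missed the threshold (limma, adjusted p = 0.0582). All 10 IRI animals were above the sham median of Rplp1. Rplp2 differed by 0.13 ± 0.097 (limma, adjusted p = 0.642), with 5 of 10 IRI animals above the sham median.

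Rpl13, a large subunit protein, had the smallest p among members. It was at 9.8, 10.53 and 10.9 in sham and 10.64, 11.09 and 11.4 in IRI, a difference of 0.63 ± 0.113 (limma, adjusted p = 0.00925). In 9 of 10 IRI animals it was above every sham animal. Rpl23, which lies where both subunits meet, was at 7.97, 8.75 and 9.13 in sham and 8.86, 9.22 and 9.65 in IRI, and differed by 0.53 ± 0.106 (limma, adjusted p = 0.0195). Here 8 IRI animals exceeded the whole sham group.

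Rpsa, a small subunit protein also known as the laminin receptor, was at 9.92, 10.72 and 11.53 in sham and 11.05, 11.43 and 12.0 in IRI. The difference of 0.77 ± 0.18 was the largest of all members, each read from its chosen probe set. It stood just past the threshold (limma, adjusted p = 0.0462). Only 4 IRI animals were above every sham animal, though all 10 were above the sham median. Rps13 followed in the small subunit at 0.64 ± 0.167 (limma, adjusted p = 0.0723), with sham at 9.25, 10.21 and 10.79 and IRI at 10.13, 10.79 and 11.02. Rpl6 had a like difference, 0.64 ± 0.205, over a wide sham range from 8.61 to 10.8 and did not pass (limma, adjusted p = 0.154). Sham animals lay on both sides of the IRI values for Rpl6.

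The members below sham were few and none passed. Rps25, a small subunit protein used by some viral internal ribosome entry sites, was lowest at -0.35 ± 0.161 (limma, adjusted p = 0.391), with sham at 9.65, 10.34 and 10.71 and IRI at 9.38, 9.92 and 10.38. Rpl39, a short protein lining the exit tunnel, differed by -0.14, Rpl23a by -0.11, Rpl35 by -0.10 and Rpl31 by -0.04. Rpl31 changed sign without IRI animal 10 (0.003).

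The IRI against sham result rests on few sham animals. Without sham animals 46 and 47, 0 members were called and the median difference fell to 0.09 with 48 members above 0. The 4 genes then stood at 0.54 (Rpsa), 0.51 (Rplp0), 0.44 (Rpl13) and 0.37 (Rpl23), with limma adjusted p between 0.109 and 0.367. Without sham animals 43 and 48, the sham arrays of highest spread, 26 members were called, all higher, and the median was 0.37. How many of all genes were called in these fits is not given beside the counts. Left out singly, sham 47 gave 0 calls, sham 44, 45, 46 or IRI 9 gave 1, and sham 41 or 42 or IRI 3, 4, 6 or 10 gave 2. Leaving out sham 48 gave 20 calls, sham 43 gave 13, IPO 30 or IPC+IPO 37 gave 10, IPC+IPO 38 gave 9, IRI 1 gave 8, and IRI 7 or 8 gave 7. Rpl13 lost its call only without sham 47 (adjusted p = 0.0533), Rpl23 in 5 of the 48 omissions, Rplp0 in 11 and Rpsa in 31. With only sham and IRI in the fit, 0 members passed.

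**Figure D2:**
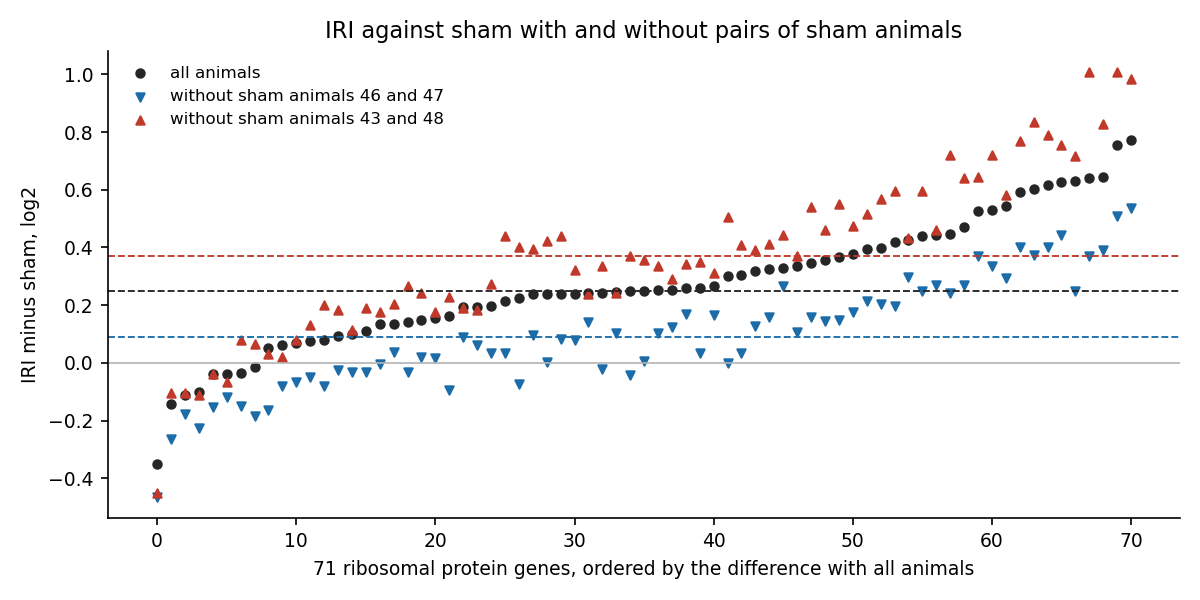
Log2 difference between IRI and sham for each of the 71 members, ordered by the value with all animals (circles), without sham animals 46 and 47 (downward triangles) and without sham animals 43 and 48 (upward triangles). Dashed lines are the medians, 0.25, 0.09 and 0.37; the choice of sham animals moves nearly the whole set.

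Each conditioned group was also compared with sham, which all these comparisons share. Against sham, 13 members rose in IPC (18.3%, beside 6.58% of all genes called, 5.6% higher and 0.986% lower), 17 in IPO (23.9%, beside 23.2% called, 15.4% higher and 7.76% lower) and 7 in IPC+IPO (9.86%, beside 3.62% called, 3.05% higher and 0.565% lower). None fell in any of them (limma, adjusted p under 0.05). Of the 71 members, 23, 26 and 25 passed an unadjusted p under 0.05 in either direction. The shares of all genes were 23.9%, 40.7% and 23.6%. Median differences were 0.10, 0.10 and 0.08, smaller than the 0.25 of IRI, and 44, 50 and 49 members lay above 0. Large subunit genes made up 9 of 13, 13 of 17 and 5 of 7 of those called.

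Rplp0 alone was called in all 4 ischemic groups, at 0.75 for IRI, 0.72 for IPC, 0.67 for IPO and 0.58 for IPC+IPO. A further 7 members were called in 3 of them, namely Rpl13, Rpl23, Rpl34, Rpl6, Rplp1, Rps29 and Rps4x. Another 5 were called in 2 groups (Rpl15, Rpl18, Rpl7a, Rps4y2 and Rpsa), 6 in 1 group (Rpl10, Rpl14, Rpl29, Rpl3, Rpl8 and Rps2), and 52 in none. By sign alone, 40 members were above sham in all 4 ischemic groups and 4 were below it in all 4 (Rpl31, Rpl35, Rpl38 and Rps25). All 4 differences are taken from the same sham animals, so shared signs and repeated calls are not independent results. The share of all genes with such signs or repeated calls is not given here, so these counts are not shown to be particular to the members.

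**Figure D3:**
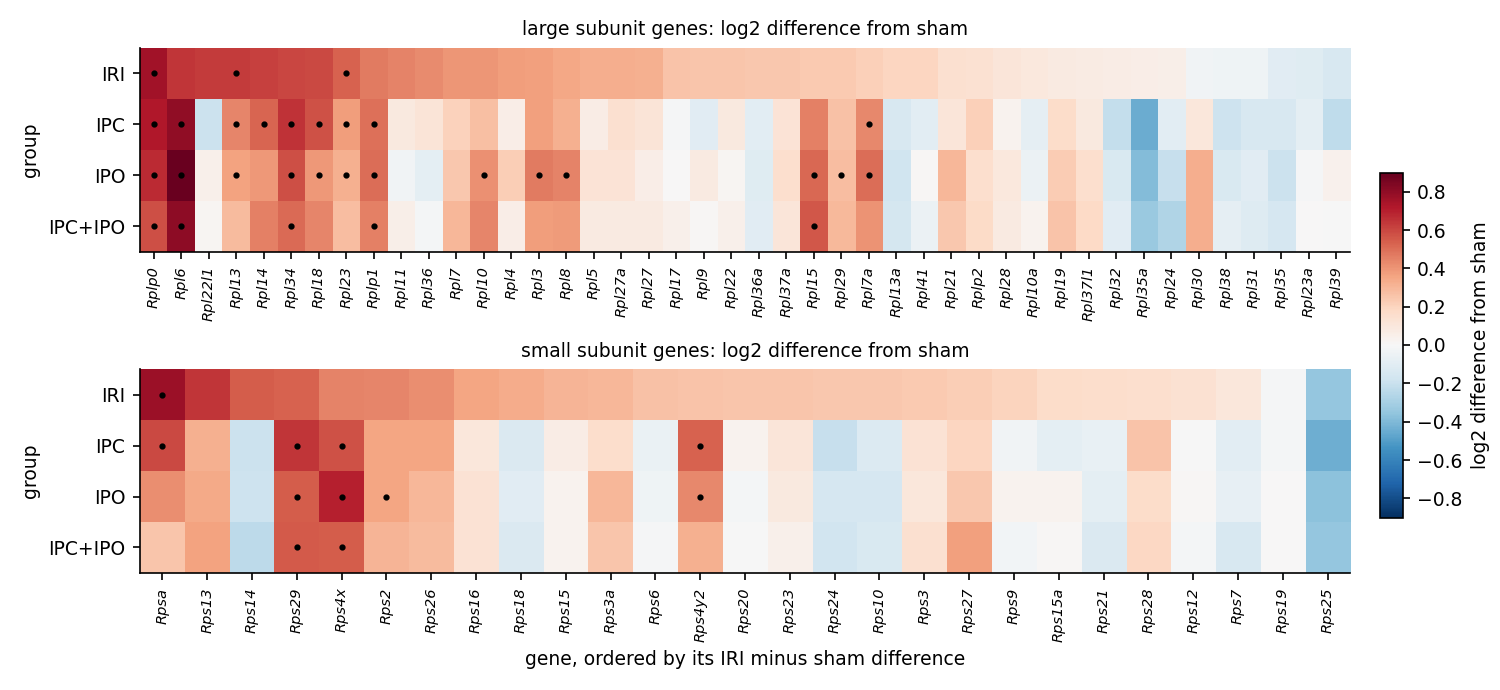
Log2 difference from sham of every member (columns, ordered by IRI minus sham, large subunit above and small subunit below) in the 4 ischemic groups (lines of the map), red for higher and blue for lower. Dots mark limma adjusted p under 0.05; Rplp0 and Rpl6 are red in all 4 groups, while Rps14 is above sham only in IRI.

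Rpl6, a large subunit protein, had the largest differences in the conditioned groups. It was at 9.83, 10.54 and 10.71 in IPC, 9.47, 10.64 and 10.79 in IPO, and 9.27, 10.61 and 10.78 in IPC+IPO, against a sham median of 9.47. The differences were 0.80, 0.89 and 0.80, each ± 0.205 (limma, adjusted p = 0.0168, 0.0049 and 0.0256). The highest sham animal (43), at 10.8, was above every conditioned animal, and sham animal 48 stood at 10.67. The other sham animals reached 9.625 at most, below every IPC animal. The lowest IPO and IPC+IPO animals, at 9.47 and 9.27, lay within the range of those other sham animals.

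Rps4x, the X-linked form of a small subunit protein, rose by 0.70 ± 0.157 in IPO (limma, adjusted p = 0.00423), by 0.57 in IPC and by 0.55 in IPC+IPO. Its sham values of 9.99, 10.61 and 11.67 spanned those of IPO, at 10.79, 11.51 and 11.65. Its paralog Rps4y2 rose by 0.53 in IPC and by 0.43 in IPO; its 0.32 in IPC+IPO did not pass. Rpl34, with the long pyrimidine run shown above, rose by 0.65 ± 0.15 in IPC (limma, adjusted p = 0.00846), from sham values of 8.91, 9.87 and 10.55 to 10.16, 10.49 and 10.79. Rpl15, of the large subunit, rose by 0.56 ± 0.151 in IPC+IPO (limma, adjusted p = 0.033), from 5.42, 5.93 and 6.68 to 5.98, 6.64 and 6.85; its level is near the array medians.

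None of these calls held without sham animals 46 and 47: 0 members were then called in any of the 3 conditioned groups against sham, and the medians were -0.10, -0.06 and -0.08. Without sham animals 43 and 48 there were 25 higher and 2 lower in IPC, 27 and 1 in IPO, and 27 and 1 in IPC+IPO. With array spread as a covariate the medians were 0.01, 0.01 and 0.02, with 1, 0 and 0 members called. Renewed quantile normalization turned the medians to -0.12, -0.16 and -0.16 and split the calls as 6 higher and 4 lower in IPC, 3 and 12 in IPO, and 1 and 0 in IPC+IPO.

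**Figure D4:**
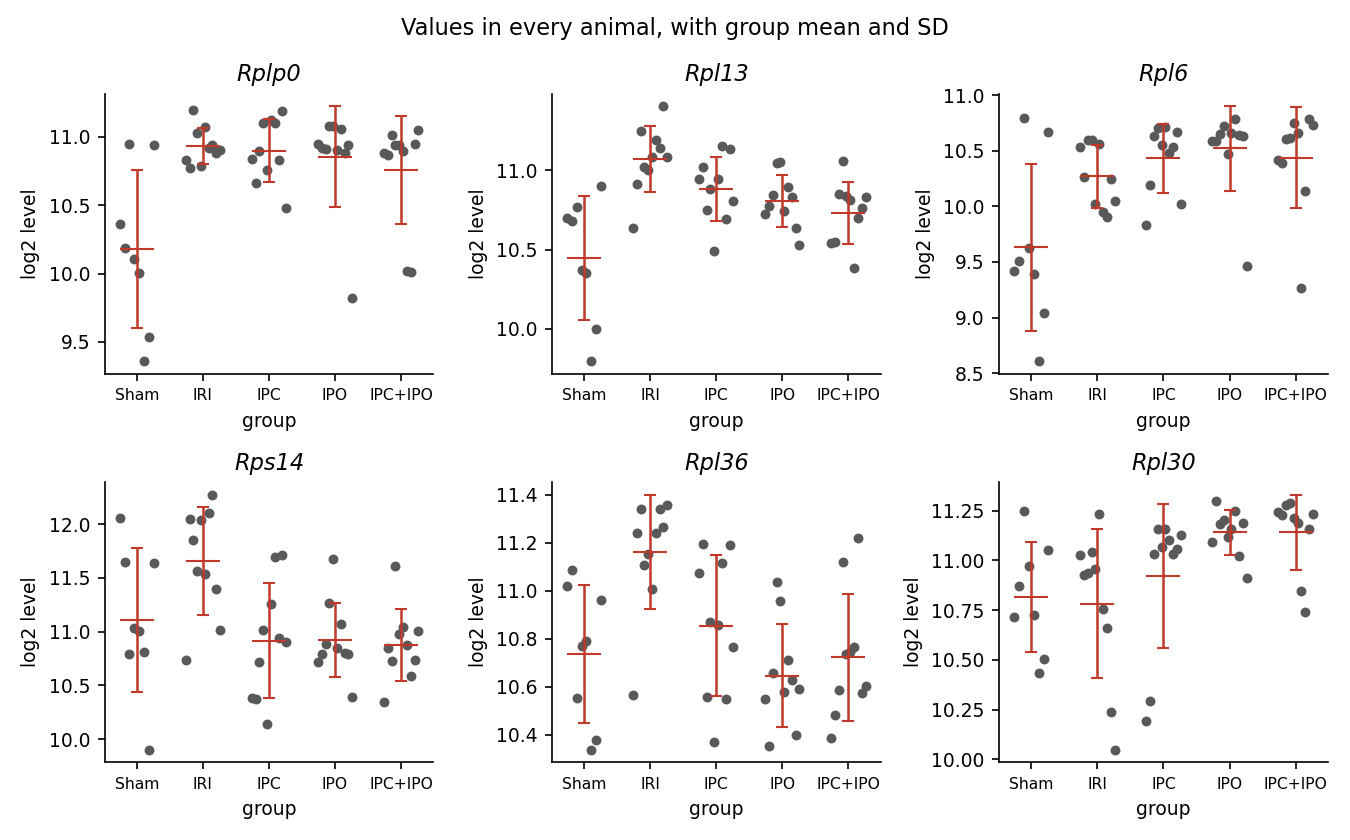
Log2 level of 6 members in every animal (grey points) with the group mean and SD (red), each panel on its own scale. Rplp0, Rpl13 and Rpl6 show the low sham animals; Rps14 and Rpl36 are highest in IRI; Rpl30 is highest in IPO and IPC+IPO.

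Postconditioning was compared with IRI alone. In IPO livers 10 members were lower and 1 was higher than in IRI (limma, adjusted p under 0.05), 15.5% of members beside 22.8% of all genes; the 14.1% lower stand beside 10.4% of all genes. The 1.41% higher stand beside 12.4% of all genes. The share of members called was thus below that of all genes, by the share called higher. At an unadjusted p under 0.05, 20 of the 71 members and 44.5% of all genes passed. Those that fell were Rpl11, Rpl13a, Rpl35a, Rpl36 and Rpl36a of the large subunit and Rps6, Rps10, Rps14, Rps18 and Rps20 of the small one, and Rpl30 rose. The median difference was -0.14 (-0.12 large, -0.17 small), beside -0.04 over all genes, and 50 members lay below 0.

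Rps14, a small subunit protein beside the mRNA exit and the gene behind the anemia of the human 5q deletion, changed most. It was at 10.73, 11.71 and 12.27 in IRI and 10.39, 10.82 and 11.67 in IPO. The difference was -0.73 ± 0.207, 0.602 of the IRI level (limma, adjusted p = 0.0188). All 10 IPO animals were below the IRI median, and 5 IRI animals were above every IPO animal. The sham values, at 9.9, 11.02 and 12.05, spanned the IPO range and overlapped the IRI range.

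Rpl36, a large subunit protein, had the smallest p. IRI animals were at 10.57, 11.24 and 11.36 and IPO animals at 10.36, 10.61 and 11.04, a difference of -0.52 ± 0.116 (limma, adjusted p = 0.0111). In 8 of 10 IRI animals it was above every IPO animal, and IRI animal 1 was the one far below its group. Rpl11, which with Rpl5 and the 5S RNA can bind Mdm2 and so connects ribosome assembly to p53, was at 10.79, 11.36 and 11.52 in IRI and 10.33, 10.77 and 11.15 in IPO. It fell by 0.48 ± 0.119 (limma, adjusted p = 0.0136), with 7 IRI animals above all of IPO.

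Rps10, a target of ubiquitylation when ribosomes collide, fell from 10.3, 10.88 and 11.09 to 10.21, 10.4 and 10.86, by 0.39 ± 0.112 (limma, adjusted p = 0.0197). Rps18, of the head of the small subunit, fell from 10.87, 11.66 and 12.12 to 10.9, 11.12 and 11.75, by 0.44 ± 0.157 (limma, adjusted p = 0.0419). Rpl35a, mutated in some patients with Diamond-Blackfan anemia, fell from 10.63, 11.46 and 11.86 to 10.69, 10.88 and 11.52, by 0.45 ± 0.163 (limma, adjusted p = 0.0412). For Rps18 and Rpl35a the lowest IRI animal was below every IPO animal, yet 9 of 10 IPO animals were below the IRI median, and for Rps10 all 10 were.

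The other 4 that fell moved less. Rpl13a, which can leave the ribosome and silence messages in interferon-treated cells, fell by 0.37, Rpl36a by 0.35, Rps6, the substrate of the S6 kinases, by 0.31 and Rps20 by 0.27 (limma, adjusted p between 0.0319 and 0.0331). In each of them all 10 IPO animals were below the IRI median. Rpl30, a small protein of the large subunit, was at 10.05, 10.93 and 11.23 in IRI and at 10.91, 11.17 and 11.3 in IPO. It rose by 0.36 ± 0.124 (limma, adjusted p = 0.0362), and 4 IRI animals were below every IPO animal. The lowest were IRI animals 9 and 10, at 10.24 and 10.05. IPC animals 11 and 12 were lowest in their group, at 10.19 and 10.29. The same animals, in this order, were low for Rpl39 (9.22, 9.18, 8.9 and 8.54) and high for Rplp2 (11.33, 11.36, 11.37 and 11.44). No fit was run without these animals together, and the cause was not tested. Of members that did not pass in IPO against IRI, Rpl7a stood at 0.29, Rpl15 at 0.28, Rps4x at 0.26 and Rpl6 at 0.25, and Rpl22l1 at -0.59.

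With array spread as a covariate 0 of the 11 calls were left in IPO against IRI (limma, adjusted p from 0.221 to 0.716). Rps14 (-0.74), Rps6 (-0.32) and Rps20 (-0.30) were then as far below IRI as before or farther. The other 7 were closer to IRI. Rpl36, which had the smallest p, went from -0.52 to -0.38, Rpl35a from -0.45 to -0.34, Rpl36a from -0.35 to -0.28 and Rps10 from -0.39 to -0.33. Rpl11 stood at -0.42, Rps18 at -0.40 and Rpl13a at -0.32, and Rpl30 went from 0.36 to 0.13. The median of the members went further from 0, to -0.23, with 8 members above 0. Rpl6 and Rps4x changed sign, to -0.20 and -0.09. Renewed quantile normalization called 20 members, all lower, among them all 10 that fell here. Rpl11 and Rpl36 kept their calls whichever single animal was left out, Rps10 and Rps14 lost theirs only without IRI 7 (adjusted p = 0.0547 and 0.0566), and the count was 2 without IRI 7. It was 4 without IRI 8 or 9 or IPO 22 or 26, 6 without IPO 21 or 23, and 7 without IRI 5 or IPO 28 or 29.

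**Figure D5:**
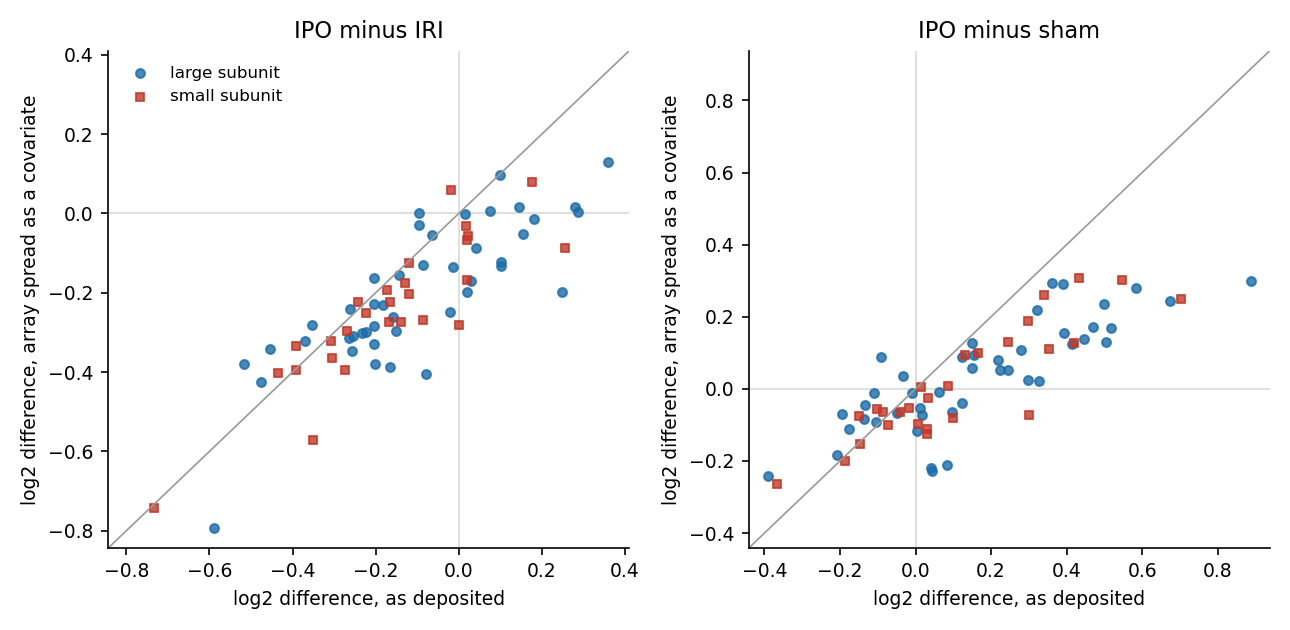
Log2 difference of each member with array spread as a covariate against the difference as deposited, for IPO minus IRI (left) and IPO minus sham (right), with circles for large and squares for small subunit genes; the line marks equal values. Against IRI most members lie below the line and below 0, and against sham the members above 0 move towards 0.

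Preconditioning and the combination were compared with the same IRI animals. In IPC against IRI limma called 0 members, beside 0.0276% of all genes (0.0138% higher and 0.0138% lower). At an unadjusted p under 0.05, 19 of the 71 members passed, beside 19.3% of all genes. In IPC+IPO against IRI limma called 0 members, beside 0.0% of all genes, and 23 of the 71 passed unadjusted, beside 21.5% of all genes. The medians were -0.14 in IPC (-0.12 large, -0.18 small) and -0.15 in IPC+IPO (-0.12 large, -0.20 small), with 56 and 50 members below 0. Without IRI animal 1, 6 members were called in IPC and 11 in IPC+IPO. Leaving out IPC+IPO animal 38 gave 7 calls in IPC+IPO against IRI, and animal 37 gave 2.

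All 3 comparisons share the IRI animals, and none of the values that follow passed. Rps14 stood at -0.74 in IPC and -0.78 in IPC+IPO (limma, adjusted p = 0.154 and 0.0942), with 9 and 10 animals below the IRI median. IPC animals had it at 10.14, 10.92 and 11.71 and IPC+IPO animals at 10.34, 10.86 and 11.61. Rpl36 stood at -0.31 and -0.44, Rps18 at -0.47 and -0.46, Rpl35a at -0.51 and -0.40, Rps24 at -0.45 and -0.42, and Rpsa at -0.18 and -0.52. Above 0 were Rpl30 (0.14 and 0.36), Rpl15 (0.21 and 0.32), Rpl7a (0.21 and 0.19), Rpl6 (0.16 in both), Rps4y2 (0.28 and 0.06) and Rpl19 (0.08 and 0.17). By sign, 48 members were below IRI and 13 above it in all 3 conditioned groups. The share of all genes with 1 sign in all 3 is not given here, so these counts are not shown to be particular to the members.

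The stalk genes lay closer to IRI than Rps14 did. Rplp0 differed from IRI by -0.04 after IPC, -0.08 after IPO and -0.18 after both, Rplp1 by 0.03, 0.03 and -0.01, and Rplp2 by 0.08, 0.01 and 0.04, none past the threshold. Rplp2 showed a narrow range in IPO, from 10.86 to 11.04, and a wider one in IRI, from 10.57 to 11.36. Rpsa, called above sham in IRI and in IPC, had IPO values of 10.43, 11.16 and 11.42 and IPC+IPO values of 9.93, 11.18 and 11.46. Its IPO difference from IRI, -0.35, did not pass (limma, adjusted p = 0.103).

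Between conditioned groups no member was called in IPO against IPC, IPC+IPO against IPC or IPC+IPO against IPO. None was called in the interaction of both interventions either (0.0% of all genes in each comparison by limma). Of the 71 members, 0, 1, 0 and 9 passed an unadjusted p under 0.05. The shares of all genes were 4.06%, 1.62%, 3.32% and 20.3%. Member medians were 0.02, 0.00 and -0.01 in the pairs. The interaction, which is the effect of adding preconditioning in postconditioned rats minus its effect without postconditioning, had a member median of 0.12 beside 0.03 over all genes.

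Among paralogs, Rpl22l1, a relative of the large subunit protein Rpl22, varied most of all members, with a within-group SD of 0.806. It was at 6.86, 8.51 and 9.71 in sham, 7.25, 9.29 and 10.2 in IRI, 6.26, 8.62 and 9.56 in IPC, 7.76, 8.45 and 9.32 in IPO, and 8.01, 8.46 and 9.37 in IPC+IPO. Its differences from IRI were -0.83, -0.59 and -0.62 in IPC, IPO and IPC+IPO with SE 0.341 each, and did not pass. Rpl22 itself differed by -0.16, -0.23 and -0.21. Rpl37l1 differed by 0.07 in IPO and 0.10 in IPC+IPO, also not past the threshold. Of all members, paralogs or not, Rpl23a had the smallest within-group SD (0.132). Over all members, the median SD within a group was 0.37 for sham, 0.25 for IRI, 0.28 for IPC, 0.19 for IPO and 0.23 for IPC+IPO.

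Most members could be read from more than 1 probe set, which shows whether a value depends on the probes. Of 54 genes with several, all probe sets had 1 sign in 48 genes for IRI against sham, 52 for IPC against IRI, 49 for IPO against IRI and 52 for IPC+IPO against IRI. The 3 probe sets of Rps14 lay between -0.75 and -0.73 in IPO against IRI and the 10 of Rpl36 between -0.61 and -0.45. The 7 of Rpl13 lay between 0.63 and 0.74 in IRI against sham, and both of Rplp0 at 0.75 and 0.86. Other called genes depended more on the probe set. The 2 of Rpsa stood at 0.51 and 0.77 in IRI against sham, and 1 was called in a fit of all probe sets. The 8 of Rps20 lay between -0.27 and -0.13 in IPO against IRI, and 1 was called there, while all 3 of Rps14 and all 10 of Rpl36 were. The widest gap was that of Rpl6 in IRI against sham, from 0.21 to 0.68. Probe sets of a gene were read from the same RNA, and ribosomal protein genes have many processed copies in the genome, so cross-hybridisation could be shared by them and was not tested.

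Other genes of the translation system were read from lists. Of all genes, 0.172% were called higher in IRI against sham, and 12.4% were called higher and 10.4% lower in IPO against IRI. The calls below stand beside these shares. Rack1, a scaffold protein of the small subunit not in the member rule, rose by 0.92 ± 0.175 in IRI against sham (limma, adjusted p = 0.0137) and Fau, which encodes a small subunit protein, fell by 0.24 ± 0.086 in IPO against IRI (limma, adjusted p = 0.0426); 2 of 4 listed genes of this kind were measured. Of 17 measured non-ribosomal genes with terminal oligopyrimidine messages, Eef1g, a subunit of elongation factor 1, rose in IRI (0.55), and Npm1 and Hnrnpa1 rose in IPO against IRI (0.61 and 0.47). Their list medians were 0.20, 0.00, 0.12 and 0.08 in IRI against sham and in IPC, IPO and IPC+IPO against IRI. With array spread as a covariate the medians against IRI turned to -0.12, -0.15 and -0.09, on the same side of 0 as the ribosomal protein medians. This was not particular to these messages. The mitochondrial ribosomal protein genes then stood at -0.11, -0.13 and -0.05, the chaperones of ribosomal proteins at -0.07, -0.08 and -0.06, and the regulators at -0.03, -0.04 and -0.004.

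Of 16 regulators of ribosomal protein messages, Tia1, which binds such messages under stress, fell in IRI against sham (-0.35). In IPO against IRI the S6 kinase gene Rps6kb1 (0.63) and the transcription factor gene Gabpa (0.56) rose, and Eif4ebp1, a translation repressor under mTOR, fell (-0.30). These 2 rises and 1 fall among 16 genes stand beside 12.4% of all genes higher and 10.4% lower. Of 11 chaperones and quality-control genes of ribosomal proteins, Prmt3 (0.39), Ltv1 (0.43) and Usp10 (0.62) rose in IPO against IRI, where 12.4% of all genes were called higher. The IPO against IRI medians of these regulators and chaperones were 0.16 and 0.18, and -0.04 and -0.08 with array spread as a covariate. The 68 mitochondrial ribosomal protein genes had medians of 0.19 in IRI against sham, with 0 called, and 0.15 in IPO against IRI, with 9 higher and 2 lower. Those 9 and 2 of 68 stand beside the same 12.4% and 10.4% of all genes. With array spread as a covariate their IPO median was -0.13.

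Erythroid and platelet markers lay on the same side of 0 as most members. All 10 measured erythroid and platelet genes were above 0 in IRI against sham, with 0 called and a median of 0.40, and all 10 were below 0 against IRI in IPC, IPO and IPC+IPO, with medians of -0.32, -0.25 and -0.16. Hbb, a beta globin gene, fell by 0.67 ± 0.241 in IPO (limma, adjusted p = 0.0411). The mean level of these genes ran from 6.52 to 7.45 for sham, 6.77 to 7.84 for IRI, 6.6 to 7.42 for IPC, 6.53 to 7.57 for IPO and 6.46 to 7.58 for IPC+IPO. Neutrophil and lymphocyte list medians were 0.10 and 0.10 in IRI against sham, with 0 called in either. In IPO against IRI they were -0.13 and -0.14, with the neutrophil genes Elane (-0.37) and Itgam (-0.31) lower and 0 lymphocyte genes called, and with array spread as a covariate 0.06 and -0.01. Medians in IPO against IRI were 0.18 for 14 hepatocyte genes (G6pc1, Tat, Tf and Ahsg higher, Apoa1 lower) and 0.33 for 11 Kupffer cell genes (Cd5l and Cd68 higher). They were 0.18 for 12 stellate cell genes (Pdgfrb and Acta2 higher), 0.31 for 9 endothelial genes (Eng higher) and -0.08 for 6 bile duct genes (0 called). With array spread as a covariate these medians were 0.02, -0.04, 0.06, 0.06 and -0.06. The calls of all these cell type lists in IPO against IRI stand beside 12.4% of all genes called higher and 10.4% called lower. In IRI against sham, Pdgfra of the stellate list fell by 0.46 and no other gene of these lists was called. The part of blood or other cells in the ribosomal protein values was not tested.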

How the data were processed

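Values are those the authors deposited: log2 expression per probe set, made with RMA in Affymetrix Expression Console per the submitters' processing notes. RMA subtracts background, equalizes probe distributions over arrays and summarises probes; versions, annotation build and filters are not given in the sources used here, nor is a batch. Of 29215 probe sets, 15310 had 1 symbol, 323 several and 13582 none in the platform annotation used; only the first were tested, 1 probe set per gene. limma 3.58.1 in R 4.3.3 (lmFit, eBayes, two-sided) was run on all 5 groups in 1 fit with 43 residual degrees of freedom, without covariates, and Benjamini-Hochberg adjustment was over the 14506 genes. Each rat is a separate animal per the labels. The number of arrays limits the precision. The script was tested on simulated data.

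The members, gene lists and tests were chosen with earlier results of these data known. Named members are those called in a main comparison (IRI against sham, each conditioned group against IRI), the 5 largest rises and falls in each, the 3 largest among those called in other comparisons, the stalk genes, Rpsa and paralogs; lists of called members are complete, and Rpl22 and Rps4y2 in other groups, Rpl5 and Rpl38 are named beyond this rule after values were seen. From the translation and cell type lists, the genes called in a main comparison are named; the rule also allowed the 2 of smallest p per list, which were not used, and called mitochondrial ribosomal protein genes are given as counts. Alternatives were 9 other settings, leaving out each of the 48 arrays, and 3 pairs of animals left out, added after the data were seen. Promoters came from a RefSeq table (GRCr8). Figures used matplotlib 3.10.9 in Python 3.11.15.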

Additional observations from a re-analysis of the deposited data

Results flagged for a closer look

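Among 170 sets of values (32 members and both subunit means, in 5 groups each), 22 had 1 animal far from the rest of its group by Dixon's ratio; chance alone gives such a value in about 1 in 20 sets. IPO animal 30 accounted for many of them, with low values of Rplp0 (9.82), Rplp1 (11.14), Rpsa (10.43), Rps4x (10.79), Rps4y2 (6.04), Rpl6 (9.47), Rpl7a (10.36), Rps13 (9.71) and Rpl15 (5.93), and a large subunit mean of -0.37. IRI animal 1 was low for Rpl36 (10.57), Rpl36a (10.91), Rps10 (10.3), Rps13 (10.13) and Rps20 (11.77). IRI animal 7 was low for Rpl15 (5.23) and IRI animal 10 for Rpl37l1 (11.49). IPC+IPO animal 37 was low for Rpl15 (5.98) and Rpl6 (9.27). IPC+IPO animal 34 was high for Rps20 (12.35) and Rps6 (11.32), with a small subunit mean of 0.37. Values of the members on 1 array are not independent of each other, so these animals are a few cases and not 22. No sham animal was among them: animals 46 and 47 lie low together, which the ratio for single values does not pick up.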

How the results depend on the processing

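No paired analysis was possible because no animal number occurs in more than 1 group. The medians of both subunits kept their direction in all 4 main comparisons under every alternative run. The counts of called members moved more. The share of all genes called under each alternative is not set beside them. A gain or loss of calls is therefore not shown to be particular to the members. In IRI against sham, where 4 were called, there were 17 with array spread as a covariate, 0 with only the 2 groups compared, 29 with array weights, 8 without the dimmest 33.3% of genes, 10 over all probe sets, 0 without sham 46 and 47, 26 without sham 43 and 48, 13 without IRI 1 and IPO 30, and 0 to 20 leaving out single arrays. In IPC against IRI, where 0 were called, there were 8 with array weights, 6 without IRI 1 and IPO 30, and 0 to 6 leaving out single arrays. In IPO against IRI, where 11 were called, there were 0 with the covariate, 29 with array weights, 20 with renewed quantile normalization and 2 to 15 leaving out single arrays, 7 being the highest of those that moved it by over 1.5 times. In IPC+IPO against IRI, where 0 were called, there were 27 with array weights, 5 with renewed quantile normalization, 12 without IRI 1 and IPO 30, and 0 to 11 leaving out single arrays (2 to 11 where any were called). Among the named members, in the main comparisons that name them, the sign changed in 5 cases: Rpl31 in IRI against sham without IRI 10 (0.003), and with the covariate Rpl6 in IPC (-0.10), IPO (-0.20) and IPC+IPO (-0.12) and Rps4x in IPO (-0.087) against IRI. Members outside the named ones turned too: in IPO against IRI, 21 of 71 were above 0 and 8 with the covariate, and in IRI against sham 63, and 48 without sham 46 and 47. Of the other values of named members, 2627 kept direction and side of the threshold, 141 lost a call and 59 gained one. The causes were not tested. The fit with only 2 groups holds fewer arrays, and in it the calls went from 4 to 0 in IRI against sham and from 11 to 14 in IPO against IRI. RMA values compress differences of dim probes, and Rpl15 and Rps4y2 are the dimmest members named.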
